A study of Homo sapiens with 6 samples.

Results

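The albumin gene cluster is a family of related genes on the long arm of human chromosome 4 that encode plasma proteins made mainly by the liver. Its 4 members examined here are ALB (albumin), AFP (alpha-fetoprotein), AFM (afamin) and GC (vitamin D-binding protein). They were chosen by gene symbol, and all 4 were found among the 16659 genes of the deposited table. The RNA came from HepaRG, an established human liver cancer line that the labels describe as hepatic stem cells. The groups were 3 libraries of wild-type cells, named as the control, and 3 libraries of cells with a functional knockout of PXR, the pregnane X receptor, a drug-sensing nuclear receptor encoded by NR1I2. All cells were without drug treatment, and neither the age of the cultures nor how the knockout cells were derived is given in the sources used here. Nothing in the labels says that libraries came from separate cultures, so the error behind each p-value is that between libraries and may be technical only.

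Each level is given in scaled CPM, reads scaled to library size, with a factor per library applied by the authors. Estimated depth was 11359209 to 20945994 reads in wild-type libraries and 28154914 to 33393109 in knockout libraries, so every knockout library was deeper than every wild-type library. NR1I2 itself was at 8.24, 7.04 and 7.60 CPM in wild type and 13.1, 13.4 and 14.3 CPM in the knockout, and a level summed over the gene does not check a functional knockout. Of 9 hepatocyte markers with values, 9 rose in the knockout, against 40.3% of all tested genes, and their summed level went from between 1460 and 1483 CPM to between 11017 and 11262 CPM. Of these, ASGR1 was under 1 CPM in every wild-type library and passed the filter on low values only through the knockout.

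Albumin is the most abundant protein of adult plasma; it maintains oncotic pressure and carries fatty acids, bilirubin and many drugs. Alpha-fetoprotein is its fetal counterpart, made by yolk sac and fetal liver and largely silenced after birth, and it returns in many hepatocellular cancers. Afamin carries vitamin E and Wnt proteins, and vitamin D-binding protein carries vitamin D metabolites and scavenges actin released from damaged cells. The promoters of ALB and AFP are textbook cases of liver-specific control, bound by C/EBP and other liver-enriched factors, and AFP is in addition held down after birth by repressors such as ZHX2 and ZBTB20.

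ALB, AFP and AFM lie side by side on the plus strand, with annotated gene starts of AFP and AFM 34.0 and 84.6 kb beyond that of ALB. In GENCODE 29 on GRCh38, ALB (ENSG00000163631.17) spans 73397114 to 73421412, AFP (ENSG00000081051.7) spans 73431138 to 73456174 and AFM (ENSG00000079557.5) spans 73481683 to 73504001 on chromosome 4. GC (ENSG00000145321.13) lies apart, at 71741693 to 71804041 on the minus strand, with its start 1593 kb before that of ALB. The principal transcripts of ALB, AFP and AFM have 15 exons each, and that of GC has 13.

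For the 3 adjacent genes the 250 bases before their starts are shown as a description. Any part of these sequences in how far each gene moved was not tested. RefSeq windows on GRCh38.p14 were matched by symbol for 3 of the 4 members; GC had none. Capitals mark, on either strand, matches to CCAAT (the CCAAT box), TATAAA (the TATA box) and TTGCNNAA (a relaxed form of the C/EBP palindrome). Positions are counted back from the RefSeq start, which need not be the outermost GENCODE start used for the distances above.
ALB promoter, chr4:73404037-73404286, + strand: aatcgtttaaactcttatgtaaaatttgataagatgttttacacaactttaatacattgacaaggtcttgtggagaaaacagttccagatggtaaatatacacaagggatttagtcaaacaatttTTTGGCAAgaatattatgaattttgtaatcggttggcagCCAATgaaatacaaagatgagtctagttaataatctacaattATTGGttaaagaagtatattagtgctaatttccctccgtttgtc
AFP promoter, chr4:73435971-73436220, + strand: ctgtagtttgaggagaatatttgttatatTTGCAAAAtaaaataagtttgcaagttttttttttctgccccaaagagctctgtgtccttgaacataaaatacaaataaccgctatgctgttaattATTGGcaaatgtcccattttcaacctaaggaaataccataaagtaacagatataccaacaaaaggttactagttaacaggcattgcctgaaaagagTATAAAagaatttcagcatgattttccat
AFM promoter, chr4:73481495-73481744, + strand: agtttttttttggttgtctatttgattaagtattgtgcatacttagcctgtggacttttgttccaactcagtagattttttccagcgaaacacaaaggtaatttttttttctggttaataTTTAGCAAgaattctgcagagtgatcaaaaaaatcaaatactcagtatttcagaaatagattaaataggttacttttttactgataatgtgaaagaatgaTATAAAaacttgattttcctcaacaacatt
TATAAA was found in AFP and AFM, 29 and 30 bases before the start, and in 10.7% of the 35116 windows in the table over the same length; those letters are not in the ALB window. CCAAT was found in ALB at 86 bases and, on the other strand, at 44 bases, and in AFP on the other strand at 125 bases; 32% of all windows hold it. A TTGCNNAA match occurred once in each of the 3, against 9.1% of all windows. The hexamers AGGTCA and AGTTCA, half-sites from which response elements of PXR and other nuclear receptors are built, were searched too and are not among the letters of these 3 windows; 12.1% and 8.8% of all windows hold them. No 2 motif matches shared a base. A match to letters is a description of the sequence and no measurement of binding.

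All 4 members were higher in the knockout, 3 of them by more than 32-fold and AFP by about 1 doubling. Of these, AFM passed the filter on low values only through the knockout libraries and had to come out higher. Albumin was already a high gene in wild type and became the top gene by level per kilobase in the knockout, while AFP stayed low in every library. Over all 16219 genes tested with limma, 79.9% passed an adjusted p of 0.05 and 40.3% passed it as higher in the knockout, so passing the test sets a gene apart little in this comparison. On the log2(CPM + 0.5) scale, where the added constant shrinks the changes of genes near 0, 0.524% of tested genes, 85 in number, rose by 32-fold or more, and ALB, AFM and GC were among them. By the plain ratio of means 238 genes, or 1.47%, passed the test and reached 32-fold, and 50 more that passed were listed at 0 in all wild-type libraries.

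ALB was at 827, 895 and 881 CPM in the 3 wild-type libraries and at 33404, 32427 and 32657 CPM in the 3 knockout libraries. The groups lay far apart, and the spread within each was small, with coefficients of variation of 4.17% and 1.56%. The means were 867 ± 36.1 and 32829 ± 511 CPM (SD, n = 3 each), a ratio of 37.8 between the means. On the log2(CPM + 0.5) scale used for all tests the change was 5.24 ± 0.037 (SE; limma adjusted p = 2.5e-19). As a share of the whole signal, ALB took 0.088% to 0.094% in wild type and 3.11% to 3.25% in the knockout. In bulk RNA, more cells of a type and more RNA per cell cannot be told apart.

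GC was at 16.7, 17.5 and 16.4 CPM in wild type and at 857, 845 and 850 CPM in the knockout. It was the least variable member, with coefficients of variation of 3.29% and 0.73%. Its groups did not overlap, as was so for 80.8% of all tested genes. The means were 16.8 ± 0.55 and 850.5 ± 6.2 CPM (SD, n = 3 each), a ratio of 50.5, and the log2 change was 5.62 ± 0.031 (SE; limma adjusted p = 5.4e-20). Its wild-type levels rested on 202, 365 and 365 reads.

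AFM was at 0.66, 0.48 and 0.49 CPM in wild type, or 8, 10 and 11 reads. In the knockout it was at 73.1, 70.7 and 69.8 CPM, or 2373, 1909 and 2244 reads. No wild-type library reached 1 CPM, so AFM passed the filter on low values only through the knockout libraries and had to differ. The 29 wild-type reads have an exact 95% Poisson interval of 19.4 to 41.6, which covers counting error only. The ratio of the means was 131, and the log2 change was 6.11 ± 0.093 (SE; limma adjusted p = 5.5e-16). This is the member whose value moves most with the added constant, being 7.03 on the log2 scale as a plain ratio of means.

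AFP was at 2.06, 1.68 and 1.66 CPM in wild type and at 3.63, 3.44 and 3.49 CPM in the knockout. The groups did not overlap, which was so for 80.8% of all tested genes. The means were 1.80 ± 0.23 and 3.52 ± 0.10 CPM (SD, n = 3 each), a ratio of 1.96, and the log2 change was 0.81 ± 0.12 (SE; limma adjusted p = 3.4e-05). These levels rested on 25, 35 and 37 reads in wild type and on 118, 93 and 112 reads in the knockout. By log2 change on that scale AFP took place 2623 among the 6534 genes that rose, where AFM, GC and ALB took places 24, 41 and 64.

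**Figure D1:**
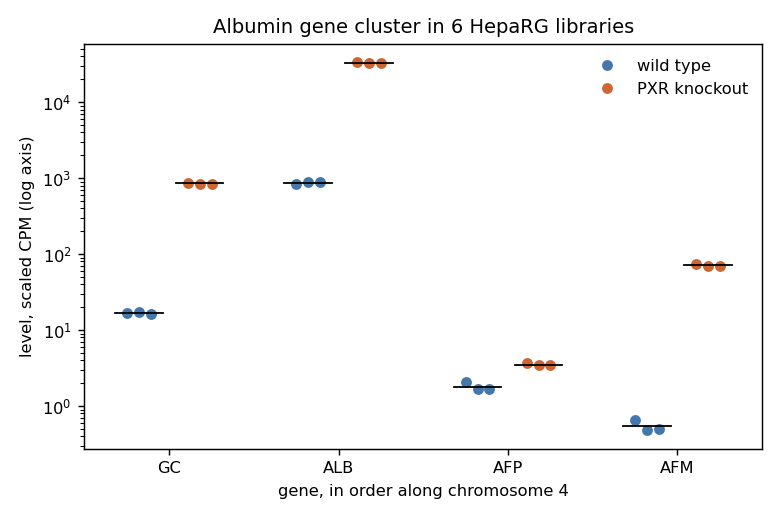
Level of each member in each library (points, scaled CPM, log axis), with the mean of 3 libraries as a line, ordered along chromosome 4. Knockout points lie above wild-type points for every gene, by far less for AFP (1.80 to 3.52 CPM) than for ALB (867 to 32829 CPM).

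Levels of different genes were compared per kilobase of the principal transcript, 2263 bases for ALB, 2484 for AFP, 2059 for AFM and 1972 for GC. In wild type the order was ALB (383 ± 16.0 CPM per kb), GC (8.54 ± 0.28), AFP (0.72 ± 0.091) and AFM (0.26 ± 0.049, SD, n = 3 each), and no 2 neighbours in that order overlapped. In the knockout it was ALB (14507 ± 226 CPM per kb), GC (431 ± 3.13), AFM (34.6 ± 0.82) and AFP (1.42 ± 0.040), again without overlap. AFP and AFM therefore changed places: AFP was above AFM in 3 of 3 wild-type libraries and below it in 3 of 3 knockout libraries. The wild-type side of this rests on 8, 10 and 11 AFM reads, and AFM passed the filter only through the knockout. Among 13634 genes with a principal transcript, ALB ranked between 106 and 110 by level per kilobase in wild type and 1 in every knockout library. GC moved from ranks between 6550 and 6779 to ranks between 92 and 94. AFM moved from ranks between 12712 and 12888 to ranks between 1906 and 2020, and AFP only from between 11938 and 12121 to between 11506 and 11569.

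Ratios between members within a library do not depend on how that library was scaled. There were 401, 534 and 529 ALB reads for each AFP read in wild type and 9190, 9414 and 9370 in the knockout. AFP stood at 3.13, 3.50 and 3.36 reads for each AFM read in wild type and at 0.050, 0.049 and 0.050 in the knockout. The balance of ALB to GC moved less, from 49.6, 51.2 and 53.7 to 39.0, 38.4 and 38.4, and the groups still did not overlap. The wild-type ratios with AFM rest on only 8, 10 and 11 AFM reads. AFM was under 1 CPM in those libraries and passed the filter on low values only through the knockout. All 6 ratios between members were tested on the log2(CPM + 0.5) scale with an exact two-sided permutation test over libraries. Each exact test gave p = 0.1, also after adjustment over the 6, which is the smallest value that 3 libraries against 3 allow and cannot pass 0.05. The mean log2 ratio of ALB to AFP went from 8.56 ± 0.20 to 12.995 ± 0.013 (SD, n = 3 each), a difference of 4.43. That of AFP to AFM went from 1.14 ± 0.016 to -4.16 ± 0.016, and that of ALB to GC from 5.64 ± 0.056 to 5.27 ± 0.012. The plain ratio of AFM to GC was 0.040, 0.027 and 0.030 in wild type and 0.085, 0.084 and 0.082 in the knockout, without overlap. Its log2 value was higher in the knockout by 0.49 on the log2(CPM + 0.5) scale and by 1.39 with no constant added. With a constant of 1, which is larger than every wild-type level of AFM, the difference was -0.028.

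**Figure D2:**
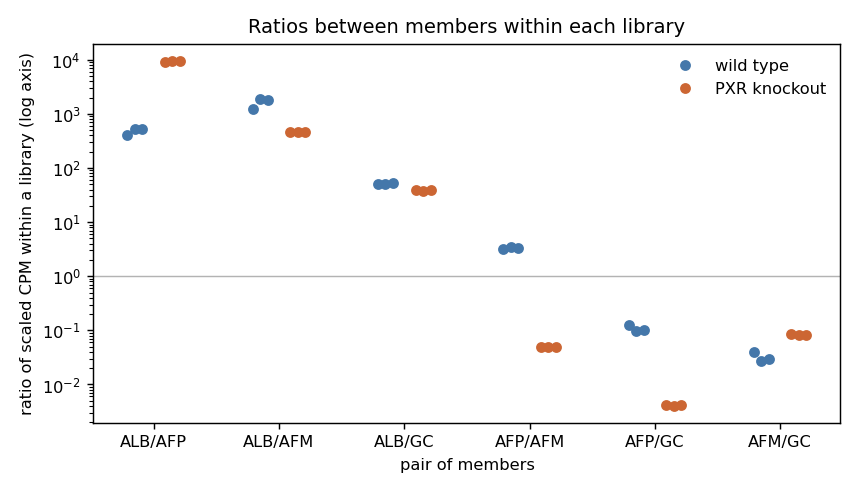
Ratio of the levels of 2 members within each library (points, log axis; grey line at 1) for the 6 pairs. The groups are separate in every pair, and the AFP/AFM ratio crosses 1, from between 3.13 and 3.50 in wild type to 0.049 or 0.050 in the knockout. Wild-type ratios with AFM rest on 8, 10 and 11 AFM reads, and AFM passed the filter only through the knockout.

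On the log2(CPM + 0.5) scale no neighbouring gene rose by as much as ALB, GC or AFM. Of 26 other genes that start within 2 Mb of the span from GC to AFM, 15 rose, 7 fell and 4 missed the threshold. Over all tested genes 40.3% rose and 39.6% fell, and of 650 on chromosome 4, 264 rose and 273 fell. The median log2 change of the 26 neighbours was 0.28. The median was -0.025 over the 650 tested genes of chromosome 4 and 0.014 over all genes tested. The largest neighbouring rise by fitted log2 change was that of LINC02499, a long non-coding RNA that starts 112 kb beyond ALB, past AFM. It was at 0.16, 0.096 and 0.045 CPM in wild type, 5 reads in all, and at 4.96, 6.26 and 5.82 CPM in the knockout, with a log2 change of 3.36 ± 0.15. The plain ratio of its means was 55.8, above those of ALB and GC, but it rests on those 5 reads. LINC02499, PARM1 and LINC02562 were under 1 CPM in every wild-type library and passed the filter only through the knockout, so, like AFM, they had to differ, and ENAM passed it only through wild type.

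Between GC and ALB lay 3 other genes with values. ADAMTS3, a procollagen-processing protease, rose from 4.81 ± 0.33 to 11.5 ± 0.37 CPM. COX18, a factor for assembly of cytochrome c oxidase, rose from 26.8 ± 1.5 to 33.4 ± 0.80 CPM (log2 change 0.31 ± 0.052). ANKRD17, an ankyrin repeat protein and the nearest gene with values before ALB, fell from 191 ± 3.75 to 166 ± 3.14 CPM (log2 change -0.21 ± 0.028).

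Beyond AFM, RASSF6, a Ras-association domain gene, rose from 3.90 ± 0.69 to 14.8 ± 0.45 CPM (log2 change 1.81 ± 0.11). In the chemokine group that follows, CXCL2 rose from 5.51 ± 0.47 to 33.8 ± 1.62 CPM, CXCL3 from 1.88 ± 0.13 to 4.84 ± 0.36 and CXCL8 from 40.8 ± 1.25 to 59.9 ± 0.92, while CXCL1 fell from 7.997 ± 0.74 to 5.91 ± 0.23 CPM. Of the EGF-like ligand genes further on, EREG rose from 3.45 ± 0.57 to 7.60 ± 0.25 and BTC from 1.21 ± 0.17 to 4.30 ± 0.23 CPM, while AREG was at 11.5 ± 0.39 and 11.8 ± 0.32 CPM (log2 change 0.036 ± 0.072, adjusted p = 0.657). MTHFD2L rose by 0.20 ± 0.061 on the log2 scale, a call that was lost with libraries scaled to equal sums (0.063, adjusted p = 0.361), and PPBP, with a log2 change of 0.023, did not pass the test. PARM1 rose from 0.26 ± 0.13, or 13 reads, to 6.94 ± 0.71 CPM. LINC02562 was listed at 0 in the 3 wild-type libraries and at 1.94, 1.74 and 1.68 CPM in the knockout.

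On the far side of GC, SULT1E1, the estrogen sulfotransferase, rose from 1.42 ± 0.70 to 15.96 ± 0.47 CPM and its relative SULT1B1 from 269 ± 9.92 to 407 ± 14 CPM. ENAM, an enamel matrix gene, had the largest fall of the neighbourhood, from 5.54 ± 0.88 to 0.73 ± 0.23 CPM (log2 change -2.30 ± 0.16). UTP3, RUFY3, GRSF1 and DCK also fell, with log2 changes of -1.18, -0.31, -0.15 and -0.75. SLC4A4, a bicarbonate transporter and the nearest gene with values before GC, rose by 0.24 ± 0.035 on the log2 scale. HTN1 and MOB1B did not pass the test, with log2 changes of -0.093 and 0.053.

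**Figure D3:**
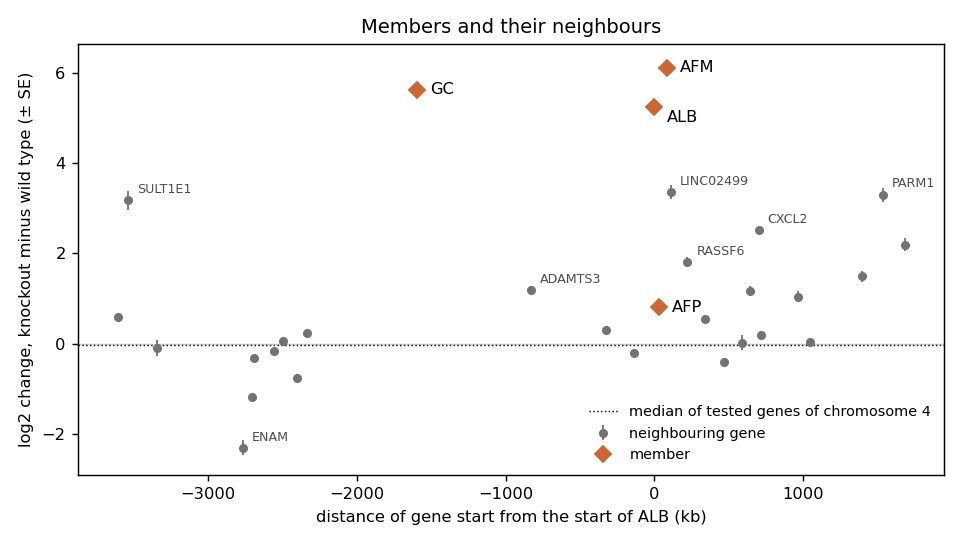
Log2 change on the log2(CPM + 0.5) scale (knockout minus wild type, bars: SE from limma) of the 4 members (diamonds) and 26 neighbouring genes (circles) against the distance of each gene's start from that of ALB, with the median of chromosome 4 dotted. GC, ALB and AFM lie above 5 while the highest neighbour, LINC02499, lies at 3.36 and AFP at 0.81.

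On the log2(CPM + 0.5) scale, every tested transcription factor described as acting on ALB or AFP control regions changed by less than ALB, GC and AFM did. Of 28 listed, 26 had values and all 26 were tested; 17 rose and 6 fell, 3 missed the threshold, and the median log2 change was 0.50 against 0.014 for all genes. The background was 40.3% of tested genes higher and 39.6% lower. Of the 17 that rose, ONECUT1 was under 1 CPM in every wild-type library. It passed the filter only through the knockout and had to come out higher.

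Factors of the C/EBP family, which bind the TTGCNNAA type of element, rose. CEBPA was at 14.8, 12.9 and 13.0 CPM in wild type and at 27.7, 28.1 and 27.5 CPM in the knockout (log2 change 1.01 ± 0.064, limma adjusted p = 2.4e-09). Its groups did not overlap, as was so for 80.8% of all tested genes. CEBPB went from 55.7 ± 4.56 to 81.3 ± 4.17 CPM and CEBPD from 14.3 ± 0.48 to 27.3 ± 1.18. The forkhead factors FOXA1 and FOXA2, which open chromatin at liver genes, rose by 1.03 ± 0.082 and 1.09 ± 0.069 on the log2 scale. FOXA3 was at 4.94 ± 0.36 and 4.17 ± 0.074 CPM (log2 change -0.22 ± 0.10, adjusted p = 0.0690), and passed as lower with libraries scaled to equal sums (-0.34, adjusted p = 0.00795) and without wild-type replicate 1 (-0.27, adjusted p = 0.0314).

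Other factors of hepatocyte differentiation covered a wider range of changes. ONECUT1, also known as HNF6, was at 0.082, 0.048 and 0.090 CPM in wild type, 4 reads in all, and at 9.21, 9.04 and 9.58 CPM in the knockout. Its log2 change was 4.09 ± 0.13. The plain ratio of its means, 126, was above those of ALB and GC but rests on those 4 reads. PROX1, needed for hepatocyte outgrowth in the embryo, rose from 6.39 ± 0.33 to 58.6 ± 1.40 CPM (log2 change 3.10 ± 0.059). NR5A2, or LRH-1, a nuclear receptor described as an activator of AFP, rose from 3.32 ± 0.31 to 16.1 ± 0.37 CPM. GATA6 rose from 2.07 ± 0.22 to 8.07 ± 0.76 CPM and GATA4 from 13.0 ± 0.040 to 21.0 ± 1.99. ONECUT2 was at 28.4 ± 1.63 and 26.5 ± 0.64 CPM and did not pass the test (adjusted p = 0.105), but passed as lower with libraries scaled to equal sums (-0.23, adjusted p = 0.00106) and without wild-type replicate 1 (-0.14, adjusted p = 0.0259).

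Factors described as repressors of AFP did not move in a single direction. ZHX2 was at 18.9, 17.9 and 18.7 CPM in wild type and at 11.5, 13.1 and 14.3 CPM in the knockout (log2 change -0.50 ± 0.078, limma adjusted p = 4.1e-05). ZBTB20 was at 196, 201 and 198 CPM in wild type and at 279, 264 and 277 CPM in the knockout (log2 change 0.46 ± 0.029, adjusted p = 2.1e-09). ZFHX3, also called ATBF1, had a log2 change of 0.10 ± 0.042 (adjusted p = 0.0401), and this turned to -0.036 with libraries scaled to equal sums (adjusted p = 0.438). Its call was also lost without any 1 of wild-type replicates 1 and 3 and knockout replicates 1, 2 and 3 (adjusted p from 0.0609 to 0.113) and with the replicate number as a block (adjusted p = 0.0677). The nuclear receptor NR2F1 rose by 0.79 ± 0.10 and its relative NR2F2 fell by 0.32 (SE 0.086).

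Of the nuclear factor I family, NFIA fell from 88.3 ± 2.65 to 65.5 ± 0.99 CPM and NFIC rose from 47.7 ± 5.27 to 65.0 ± 0.92. NFIB rose by 0.15 ± 0.038 on the log2 scale, a call lost with libraries scaled to equal sums (0.014, adjusted p = 0.759), and NFIX fell by 0.24 (SE 0.083), a call lost without wild-type replicate 1 (-0.17, adjusted p = 0.0712), wild-type replicate 3 (-0.23, 0.0509) or knockout replicate 1 (-0.17, 0.0872). The PAR-bZIP factors DBP (the D-box binding protein) and TEF, which bind the D site of the albumin promoter, fell by 0.29 (SE 0.097) and 0.27 (SE 0.079). That of DBP was lost without wild-type replicate 3 (-0.25, adjusted p = 0.0558) or knockout replicate 1 (-0.21, adjusted p = 0.0720). HLF, of the same family, was at 6.48 ± 0.99 and 6.87 ± 0.83 CPM (adjusted p = 0.543).

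**Figure D4:**
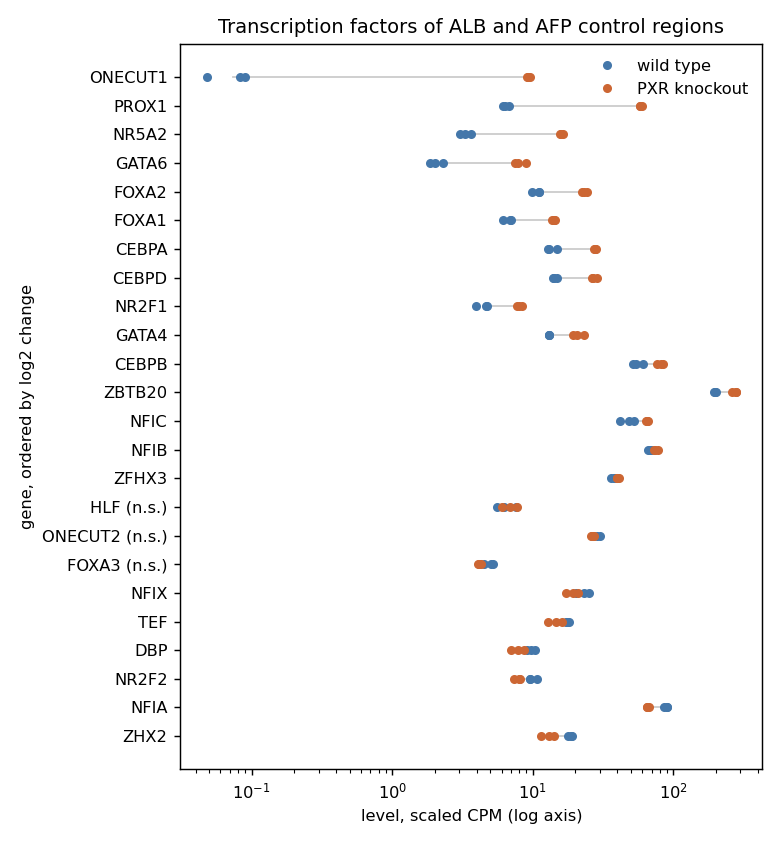
Level of 24 of the 26 tested transcription factors in each library (points, scaled CPM, log axis), ordered by log2 change, with a grey line between the group means; n.s. marks the 3 that did not pass the test. ONECUT1 (log2 change 4.09) and PROX1 (3.10) lie farthest apart, and ZHX2 (-0.50) is the lowest.

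Other plasma carriers of the liver rose alongside, though some of them are also on the list of hepatocyte markers. Of 17 listed, 15 were tested. Of these, 13 rose and 2 fell, against 40.3% and 39.6% of all tested genes, with a median log2 change of 3.70. Of the 13, AHSG, APOM, HPX, HRG and SERPINA7 were under 1 CPM in every wild-type library and passed the filter only through the knockout, so these 5 had to come out higher. HPX, the heme carrier, rose by 7.80 ± 0.082, from 0.49, 0.77 and 0.63 CPM to 243, 249 and 259 CPM. HP, which binds free hemoglobin, rose from 55.1 ± 3.57 to 2330 ± 6.65 CPM, a log2 change of 5.39 ± 0.038 that lies between those of ALB and GC. AHSG, or fetuin-A, rose from 0.19 ± 0.17 to 24.7 ± 0.82 CPM, with 12 wild-type reads. TCN2, for a carrier of vitamin B12, fell from 43.7 ± 2.49 to 27.2 ± 1.73 CPM. SELENOP, for the selenium carrier, fell from 1307 ± 50.7 to 1159 ± 16.6 CPM. When only genes above 1 CPM in all 6 libraries were kept, 8 carriers rose, fewer because fewer were tested. CYP3A7, AMN and ONECUT1, of the other lists, also passed the filter only through the knockout.

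Fetal liver genes moved by varied amounts. Of 15 fetal liver and oncofetal genes, 10 had values and 9 were tested. Of these, 6 rose and none fell, against 40.3% and 39.6% of all tested genes, and 3 missed the threshold. The median log2 change was 0.32. CYP3A7, the fetal cytochrome P450, rose most, from 0.41, 0.14 and 0.45 CPM, 18 reads in all, to 67.7, 67.3 and 67.4 CPM. SPINK1, a trypsin inhibitor of regenerating and cancerous liver, rose from 58.3 ± 2.00 to 279.5 ± 10.5 CPM, and H19, an imprinted fetal RNA, from 4.36 ± 0.47 to 8.31 ± 0.25 CPM (log2 change 0.86 ± 0.10), close in size to the change of AFP. LIN28B rose by 0.83 ± 0.076 and PEG10 by 0.27 ± 0.025; HMGA2, IGF2BP3 and MDK had log2 changes of -0.16, -0.022 and 0.074 and did not pass the test.

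Genes that mature, recycle or take up albumin moved in both directions. Of 8 listed, 6 were tested. Of these, 4 rose and 2 fell, against 40.3% and 39.6% of all tested genes, with a median log2 change of 0.43. FCGRT, the heavy chain of the neonatal Fc receptor that rescues albumin from breakdown, was at 5.28, 4.07 and 4.90 CPM in wild type and at 69.8, 75.6 and 76.1 CPM in the knockout (log2 change 3.83 ± 0.081, limma adjusted p = 1.7e-14). Its partner chain B2M rose from 644 ± 37.7 to 802.5 ± 7.45 CPM (log2 change 0.32 ± 0.036). AMN rose from 0.14 ± 0.055 CPM, or 8 reads, to 5.42 ± 0.57 CPM; its product partners with cubilin, whose gene CUBN fell from 1.46 ± 0.28 to 0.86 ± 0.22 CPM. FURIN, for a convertase of the kind that trims proalbumin, fell by 0.15 (SE 0.048), a call lost without knockout replicate 1 (-0.10, adjusted p = 0.0559).

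Partners of vitamin D-binding protein were also read. Of 11 genes of vitamin D handling and actin scavenging, 10 were tested. Of these, 6 rose and 2 fell, against 40.3% and 39.6% of all tested genes, and 2 missed the threshold. The median log2 change was 0.27. GSN, or gelsolin, the other actin scavenger of plasma, was at 23.0, 22.6 and 23.3 CPM in wild type and at 359, 373 and 366 CPM in the knockout (log2 change 3.97 ± 0.031). VDR, the vitamin D receptor, rose from 11.2 ± 0.63 to 49.2 ± 1.24 CPM. CYP3A4, which also breaks down vitamin D, rose from 13.7 ± 0.39 to 257 ± 4.80 CPM. CYP27A1 and ACTG1 fell, by 0.25 (SE 0.037) and 0.41 (SE 0.026), and the vitamin D hydroxylase genes CYP2R1 and CYP27B1 did not pass the test (adjusted p = 0.127 and 0.0546). Of 7 vitamin E genes, which share a cargo with afamin, 6 were tested. Here 4 rose and 2 fell, against the same 40.3% and 39.6% of all tested genes. TTPA, the tocopherol transfer protein of liver, rose from 1.21 ± 0.20 to 6.55 ± 0.31 CPM, CYP4F2 from 3.12 ± 0.21 to 32.7 ± 0.57 and ABCA1 from 57.4 ± 2.42 to 262.9 ± 6.35, while TTPAL and LPL fell by 0.67 (SE 0.030) and 0.66 (SE 0.033).

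**Figure D5:**
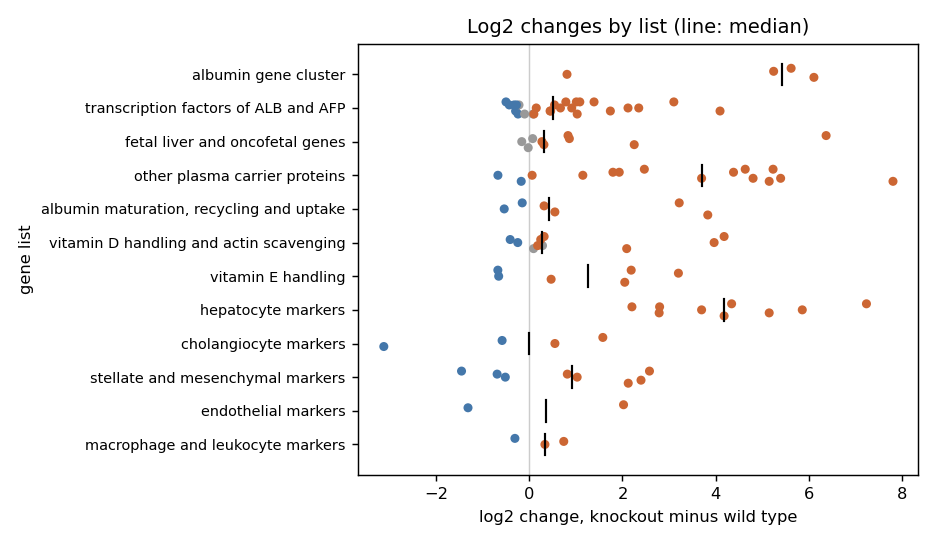
Log2 change (knockout minus wild type) of each tested gene by list, coloured orange where higher, blue where lower and grey where the test was not passed, with the list median as a line. ALB, GC and AFM lie between 5.24 and 6.11, above the medians of the other lists, the highest of which is 4.18 for hepatocyte markers, while AFP lies at 0.81. Single genes of other lists lie higher than these members, among them HPX (7.80), APOA1 (7.23) and CYP3A7 (6.37). Of those, HPX and CYP3A7 passed the filter only through the knockout. Some genes are on several lists, so the lists are not independent of each other.

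Genes with the pattern nearest to each member were found by Euclidean distance over the 6 libraries of log2(CPM + 0.5) minus the wild-type mean. Nearest to ALB were ACMSD (distance 0.16) and UGT2A3 (0.23), and nearest to GC were CYP2C18 (0.30) and TM4SF4 (0.31). Nearest to AFM were COL6A1 (0.31), MIR122HG, the host transcript of the liver microRNA miR-122 (0.37), and CYGB (0.37). Like AFM, COL6A1 and MIR122HG were under 1 CPM in every wild-type library. They passed the filter only through the knockout and had to differ, so part of their likeness to AFM was set by the filter. AFP lay nearest to the non-coding AC245041.1 (0.061), VAMP5 (0.070) and WDFY2 (0.10). UGT2A3, a glucuronosyltransferase gene, went from 6.69 ± 0.55 to 249 ± 1.21 CPM. The added constant enters all of these distances. By plain ratio of means ACMSD, at 51.9, lay farther from ALB (37.8) than UGT2A3 did (37.2). In the same way CYP2C18, at 76.2, lay farther from GC (50.5) than TM4SF4 did (46.8).

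Markers of other cell types gave no common direction, and neither did all tested genes, of which 40.3% rose and 39.6% fell. Of 5 cholangiocyte markers with values 2 rose, 2 fell and 1 was too low to test, and their summed level went from between 489 and 515 CPM to between 374 and 400 CPM. Most of that sum was SPP1, which fell from 382 ± 12.4 to 43.6 ± 1.46 CPM, and KRT19, which rose from 111 ± 2.89 to 334 ± 12.2 CPM. Among 8 markers of stellate or mesenchymal cells, 5 rose and 3 fell, with sums from between 118 and 125 CPM to between 499.7 and 522 CPM. The rise of that sum was mainly that of DCN (63.1 ± 2.61 to 334.5 ± 9.40 CPM), LUM (20.4 ± 1.33 to 90.5 ± 3.19) and ACTA2 (8.90 ± 0.25 to 55.7 ± 0.85). The 3 that fell were PDGFRB, RGS5 and TAGLN. Of 2 tested endothelial markers 1 rose and 1 fell, with sums from 54.8 to 55.1 CPM in wild type and from 215 to 222 CPM in the knockout, nearly all of it KDR, while PECAM1 was at 1.58 ± 0.055 and 0.35 ± 0.20 CPM. Of 3 macrophage and leukocyte markers 2 rose and 1 fell, with sums from 13.6 to 16.8 CPM in wild type and from 22.7 to 24.1 CPM in the knockout. Only 1 rose without wild-type replicate 1 or 2 or knockout replicate 1 or 3, and 0 fell without wild-type replicate 2 or 3 or knockout replicate 1 or 2. KRT7, PDGFRB and PECAM1, all lower, passed the filter only through wild type. No marker with a value was at 0 in any library, and the other listed markers were not analysed here. The part of these differences in marker levels and of depth in the rise of the albumin cluster was not tested, and depth and genotype cannot be told apart.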

How the data were processed

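The measurements were RNA levels in 6 HepaRG libraries, 3 wild type and 3 labelled as a functional PXR knockout, grouped by sample title. Per the labels' protocols, total RNA was made into stranded mRNA libraries; hg38 and the tools Bowtie2, FastQC, Trim Galore, limma and edgeR are named in the submitters' processing notes, without versions, annotation or strand setting. The deposited signal values are linear scaled CPM, although the table is named for log2 values. In the deposited signal, 100% of values under 50 CPM were multiples of a hundredth of a read (within 0.05 of that step), which gave the depths; 67.2% to 76.6% of values below 20 reads were whole (within 0.006 of a read), so no count test was run.

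Of 16673 rows, 14 second pseudoautosomal copies were left out, and 16608 of the remaining 16659 matched GENCODE 29 by identifier without version. Genes above 1 CPM in at least 3 of 6 libraries were fitted by group on log2(CPM + 0.5) with limma 3.58.1 in R 4.3.3 (empirical Bayes with trend, two-sided, Benjamini-Hochberg over 16219 genes, threshold 0.05). The members and lists were chosen with earlier results of these data known. Named genes were the members, NR1I2, tested neighbours within 2 Mb, all listed transcription factors, up to 3 largest rises and falls of each other list and the 3 nearest patterns per member among genes whose mean log2 level was 3 or more; others were chosen after their values were seen. On simulated counts at the depths of these libraries (15963 genes) the fit recovered 92% of 1.5-fold and 100% of 2-, 4- and 8-fold changes, with 13 false calls among 206. Only 49 or 50 genes with a mean above 1 CPM were changed per fold, and the dispersion was a fixed assumed value. In the data 79.9% of tested genes passed and the error between cultures is unknown, so these rates need not hold there. Alternatives covered the pseudocount, filter, scaling, trend, replicate block and each library left out. Some listed genes were not analysed here, and some genes that the rule names are not reported here.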

Additional observations from a re-analysis of the deposited data

How the results depend on the processing

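The log2 changes of the 4 members kept their direction and their side of the threshold under every alternative run: 5.07 to 5.26 for ALB, 5.48 to 5.65 for GC, 5.55 to 6.80 for AFM and 0.69 to 0.94 for AFP, with a largest limma adjusted p of 0.000387. AFM had to come out higher, since it passed the main filter only through the knockout, so its kept direction adds little. It gave no value when genes had to be above 1 CPM in all 6 libraries. With libraries scaled to equal sums the median of all genes was -0.12 in place of 0.014, and the changes of ALB, GC, AFM and AFP were 5.10, 5.48, 6.0 and 0.70. The log2 ratio of AFM to GC reversed with a pseudocount of 1 (-0.028, exact permutation p = 0.8), and the change of ZFHX3 reversed with libraries scaled to equal sums (-0.036). With no pseudocount, an alternative chosen after seeing the data, all 6 ratios kept their direction. Same-numbered libraries did not deviate together (correlations of -0.020, -0.061 and 0.025 over genes). Such low correlations gave no sign that the numbers pair libraries, but they cannot exclude a shared culture or batch. With the replicate number as a block 12916 genes passed in place of 12960; of the list counts, plasma carriers that rose went from 13 to 12, transcription factors that rose from 17 to 16 and macrophage and leukocyte markers that fell from 1 to 0.

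Counts that moved by over 1.5 times were small. Fetal liver genes that fell went from 0 to 1 with quantile normalization, equal sums and equal sums without ALB. With only genes above 1 CPM in all 6 libraries, 8 plasma carriers rose in place of 13, and 1 gene of albumin maturation and uptake, 1 cholangiocyte marker and 0 endothelial markers fell, fewer because fewer were tested. Macrophage and leukocyte markers that rose went from 2 to 1 with quantile normalization, equal sums and equal sums without ALB, and those that fell from 1 to 0 with a pseudocount of 0.1. Leaving out 1 library at a time gave 1 to 2 macrophage and leukocyte markers that rose, 0 to 1 that fell, and 1 to 2 genes of albumin maturation and uptake that fell; the cause was not tested. AFP and wild-type AFM rest on few reads, which limits their precision.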
